A study of Mus musculus with 8 samples.

Results

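The 9 genes described here encode variant histones whose mRNAs are polyadenylated. They were chosen by symbol from the deposited polysome table, which lists 21765 genes. They are the H2A.Z genes H2afz and H2afv, the H2A.X gene H2afx, and the macroH2A genes H2afy and H2afy2. The others are the H3.3 genes H3f3a and H3f3b and the linker histone genes H1f0 and H1fx. All 9 were in the table, and all 9 passed the filter of a mean of at least 1 TPM (transcripts per 1000000 transcripts).

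Mex3a, the gene of an RNA-binding protein, was deleted or kept in the main olfactory epithelium of mice, and the mRNA bound to polysomes was sequenced. Tissue was taken in 100 µg/mL cycloheximide, which holds ribosomes on mRNA, and lysates were separated on sucrose gradients into about 42 fractions of 350 µL. From each fraction, 50 µL went into a pool of fractions 27 to 34 (early polysomes) or of fractions 35 to 42 (late polysomes). Wild-type (WT) mice were Mex3a flox/flox or flox/+ without Cre, so that floxed alleles were shared by both genotypes, and conditional knockout (cKO) mice were Mex3a flox/flox with Cre. Genotype and fraction give 4 groups of 2 libraries. The early and late libraries of a genotype and number carry the same lysate name, which gives 2 WT and 2 cKO lysates. Age, sex and the number of animals in a lysate are not given in the labels used here. Where lysates came from the same animals or pool, p-values measure only the spread between these samples. The design text of the series also describes sorted cells with tetO transgenes driven by gg8-tTA or OMP-tTA, but the labels of these 8 libraries describe tissue lysates and name no transgene. The title of WT early replicate 2 says WT while its genotype tag says cKO. The title was followed, and the calls of the variants, the differences between them and their genotype estimates in early polysomes are also given without this library or its lysate, WT lysate 2.

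Histones package DNA into nucleosomes. The replication-dependent histones are made in S phase from mRNAs that end in a stem-loop in place of a poly(A) tail, while variant histones are made throughout the cell cycle and in cells that no longer divide, such as neurons, from polyadenylated mRNAs. H3.3 replaces H3 at transcribed genes and in heterochromatin. H2A.Z marks nucleosomes next to transcription start sites, H2A.X is phosphorylated at DNA breaks, macroH2A carries a large folded domain behind its H2A part, and linker histones bind the DNA between nucleosomes. On a gradient, an mRNA moves further the more ribosomes it carries, and a short coding sequence has room for few.

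The coding sequences of the variants fall into a short and a long class. In the GENCODE M21 annotation of GRCm38, the longest coding sequence, stop codon included, was 387 nt for H2afz and H2afv, 411 nt for H3f3a and H3f3b, and 432 nt for H2afx. The linker histones had 567 nt (H1fx) and 585 nt (H1f0), and both macroH2A genes had 1119 nt. H2afz lies at chr3:137864487-137866922 on the plus strand, and its annotated transcript has 5 exons. H2afv lies at chr11:6427229-6444443 on the minus strand, also with 5 exons. H3f3a lies at chr1:180800832-180813943 with 4 exons and H3f3b at chr11:116021912-116027962 with 6, both on the minus strand. H2afy lies at chr13:56073619-56136361 and H2afy2 at chr10:61738665-61784147, both on the minus strand with 9 exons. H2afx (chr9:44334694-44336077, plus strand), H1f0 (chr15:79028450-79030504, plus strand) and H1fx (chr6:87980421-87981637, minus strand) have 1 exon, as replication-dependent histone genes usually do.

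The start of the coding sequence is shown for the gene pairs of H3.3 and H2A.Z. The genes of a pair make an identical or nearly identical protein and have the same longest annotated coding length. They can thus be set side by side at equal annotated length. Which of their transcripts were on polysomes was not tested. The first 150 coding bases from GENCODE M21 are given 5′ to 3′, with bases in capitals where the genes of a pair differ.
H3f3a: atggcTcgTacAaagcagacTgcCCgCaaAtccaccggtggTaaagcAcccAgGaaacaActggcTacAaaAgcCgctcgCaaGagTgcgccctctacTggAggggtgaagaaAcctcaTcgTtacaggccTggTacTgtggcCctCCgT
H3f3b: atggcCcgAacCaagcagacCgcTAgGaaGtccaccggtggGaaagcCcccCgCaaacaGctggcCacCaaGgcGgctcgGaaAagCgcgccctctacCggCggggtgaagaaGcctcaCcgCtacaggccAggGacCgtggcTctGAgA
H2afz: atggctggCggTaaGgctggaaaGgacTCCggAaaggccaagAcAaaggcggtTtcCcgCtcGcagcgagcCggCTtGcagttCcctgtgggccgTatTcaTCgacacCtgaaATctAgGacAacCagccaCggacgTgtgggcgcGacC
H2afv: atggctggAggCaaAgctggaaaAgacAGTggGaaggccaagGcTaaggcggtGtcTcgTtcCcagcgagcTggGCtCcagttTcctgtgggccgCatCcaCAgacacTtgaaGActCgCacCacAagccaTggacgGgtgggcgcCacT
Over the whole coding sequence, H3f3a and H3f3b differed at 95 of 411 bases (76.9% identical). They differed in 83 of 136 codons, and all 83 differences were synonymous, so both genes encode the same H3.3 protein. Of the differing bases, 81 were at the last position of a codon, and G or C made up 44.5% of last positions in H3f3a and 70.1% in H3f3b. H2afz and H2afv differed at 81 of 387 bases (79.1% identical) and in 74 of 128 codons, of which 71 were synonymous and 3 changed the residue. Their share of G or C at the last codon position was 55.0% in H2afz and 58.9% in H2afv.

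H2afx is shown because its transcript can end in either of the ways by which histone mRNAs are known to end. Of the 9 genes, H2afx alone had a match to the histone stem-loop motif in its longest-coding annotated transcript, given here with 5 bases on each side and the match in capitals.
H2afx: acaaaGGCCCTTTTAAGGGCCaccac
The match lies 47 bases after the stop codon and 822 bases before the annotated 3′ end, so the transcript model runs on past it. The motif was found in the transcripts of 107 of 21877 protein-coding genes (0.489%) and of 45 of 67 annotated replication-dependent histone genes (67.2%). A poly(A) signal (AATAAA or ATTAAA) lay in the last 50 bases of 7 of the 9 transcripts, H2afx included, but not of the H2afy and H3f3b transcripts used. The same was true of 69.6% of all protein-coding genes and 25.4% of the 67 replication-dependent histone genes. A match is a description of the letters and does not show which end the RNA in these libraries had.

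The depth inferred from the steps of the TPM values was 7776792 to 12771079 reads per library, lowest in cKO late replicate 2, and the variants were well covered. H3f3b had 4975 to 17429 inferred reads per library and H2afv, the least covered, 171 to 831. The targeted gene differed between genotypes as the titles of all 8 libraries say. Mex3a stood at 97.4 and 115.6 TPM in WT early, 93.2 and 95.6 TPM in WT late, 13.9 and 19.8 TPM in cKO early, and 11.1 and 13.8 TPM in cKO late libraries. The value of 115.6 TPM belongs to the library with the conflicting tag, and it goes with the WT of its title and not with its cKO tag. Markers of mature olfactory neurons were abundant, with 10 genes such as Omp summing to between 8361 and 18900 scaled TPM per library. All 12 markers of proliferating cells were above the filter too, so that the tissue held dividing and non-dividing cells. In bulk tissue, fewer cells of a type and less RNA per cell cannot be told apart.

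The question addressed first was how these mRNAs are spread over the gradient. TPM is per transcript length, so levels can be compared between genes only as far as the length used is right. The length implied by the TPM of H3f3a was about 1076 nt, while its longest-coding annotated transcript has 2841 nt. Its place among the 9 genes depends on that length. The 9 mRNAs together made up 0.399% to 0.445% of TPM in early and 0.239% to 0.266% in late libraries. H3f3b led in both fractions, with 34.5% to 43.1% of the TPM of the 9 genes. In early polysomes, the mean over 4 libraries was 1779 TPM for H3f3b, followed by H1f0 at 576.8, H2afz at 476.5 and H2afy at 395.5 TPM, with no overlap between neighbours in this order. H2afx (309.5 TPM), H3f3a (287.4 TPM) and H1fx (229.9 TPM) overlapped their neighbours. H2afv and H2afy2 were lowest at 94.2 and 93.8 TPM and overlapped. In late polysomes, H3f3b stayed highest at a mean of 896.7 TPM, but H2afy followed at 449.0 TPM, ahead of H1f0 at 366.7 TPM. H2afz (179.1 TPM), H2afx (173.4 TPM), H2afy2 (152.9 TPM), H1fx (140.7 TPM) and H3f3a (126.8 TPM) each overlapped their neighbours among these 5, and H2afv was lowest at 47.3 TPM, below all of them. The macroH2A genes made up 10.7% to 12.4% of the TPM of the 9 genes in early and 23.1% to 24.3% in late libraries, without overlap.

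**Figure D1:**
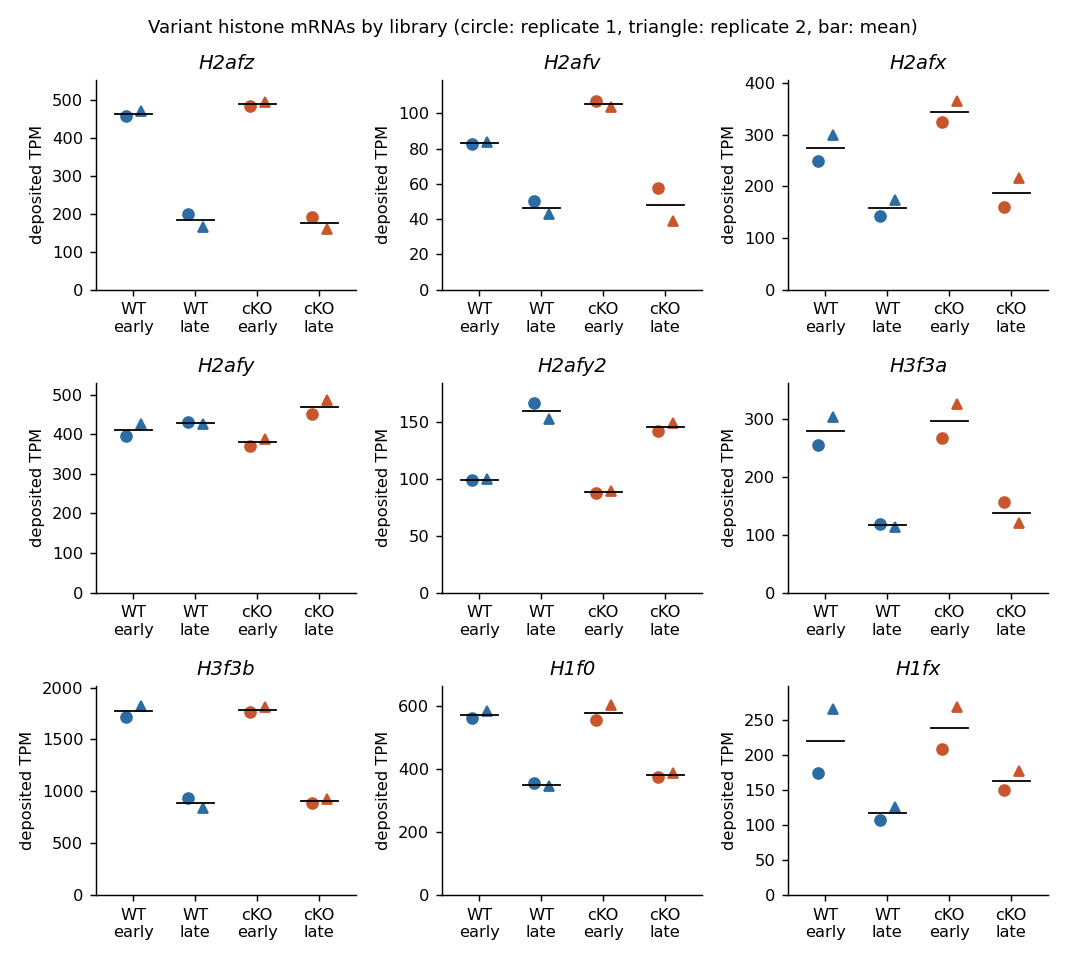
Deposited TPM of the 9 variant histone genes (y axes, from 0) in the 4 groups of genotype and polysome fraction (x axes); each circle or triangle is 1 library and each bar the mean of 2. H2afz, H2afv, H2afx, H3f3a, H3f3b and H1f0 are lower in every late than in every early library, H1fx overlaps (lowest early 175.4, highest late 177.7 TPM), and H2afy and H2afy2 are higher in every late library.

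Late polysomes were poorer in 7 of the 9 variants and richer in 1, in WT, in cKO and on the average of both genotypes. Of all 16097 genes tested, 54.8% were called in WT (27.7% lower, 27.1% higher in late polysomes), 58.1% in cKO (29.2% lower, 28.9% higher) and 68.9% on average (34.6% lower, 34.3% higher), so calls in both directions were common. The test was limma on log2(scaled TPM + 1), with p-values adjusted by the Benjamini-Hochberg method over all genes tested and a threshold of 0.05. Changes and late levels as a percentage of early levels were computed from TPM scaled between libraries, so they are not the ratios of the deposited TPM printed for each gene. Values are relative to the other RNA of the same fraction and do not give the amount of an mRNA in it. The median change of the 9 genes on average was -0.95 (log2), beside -0.011 over all genes tested. Without WT early replicate 2, the WT comparison again called 7 variants lower and 1 higher, with changes from -1.42 for H2afz to -0.68 for H1fx among the lower ones and 0.59 for H2afy2 (limma).

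Of the H3.3 genes, H3f3b is the more abundant source of the protein in this table. H3f3b stood at 1719.7 and 1820.3 TPM in WT early and 937.0 and 836.8 TPM in WT late libraries. In cKO it stood at 1765.2 and 1811.4 TPM in early and 887.5 and 925.7 TPM in late libraries. Every late library was below every early one, and the late level in scaled TPM was 46.6% ± 3.83 (SD, n = 4 lysates) of the early level. The log2 change was -0.96, -1.25, -1.08 and -1.14 in WT lysates 1 and 2 and cKO lysates 1 and 2, and limma gave -1.11 (SE 0.093, adjusted p = 2.92e-05). H3f3a stood at 254.0 and 303.9 TPM in WT early, 118.7 and 113.5 TPM in WT late, 266.7 and 325.1 TPM in cKO early, and 155.6 and 119.6 TPM in cKO late libraries. Again no late library reached an early one. Its log2 change was -1.18, -1.54, -0.86 and -1.60 in the 4 lysates, more spread than that of H3f3b, and limma gave -1.29 (SE 0.12, adjusted p = 4.05e-05).

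The H2A.Z mRNAs fell as well. H2afz stood at 456.3 and 471.0 TPM in WT early, 199.3 and 165.3 TPM in WT late, 483.2 and 495.4 TPM in cKO early, and 191.1 and 160.6 TPM in cKO late libraries. The late level in scaled TPM was 34.8% ± 5.43 (SD, n = 4) of the early level, the lowest of the 9 genes. The log2 change was -1.28, -1.63, -1.42 and -1.79 in the 4 lysates, and limma gave -1.53 (SE 0.097, adjusted p = 1.88e-05). H2afv, which encodes the other H2A.Z protein, stood at 82.3 and 83.7 TPM in WT early, 50.0 and 42.9 TPM in WT late, 106.8 and 103.8 TPM in cKO early, and 57.6 and 38.8 TPM in cKO late libraries. All late libraries were below all early ones, and the late level in scaled TPM was 47.0% ± 10.1 (SD, n = 4) of the early level. The change was -1.10 in limma (SE 0.13, adjusted p = 0.00011).

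H2afx, the variant phosphorylated at DNA breaks, stood at 248.3 and 300.4 TPM in WT early, 143.4 and 174.5 TPM in WT late, 323.8 and 365.4 TPM in cKO early, and 159.8 and 215.8 TPM in cKO late libraries. Late libraries lay below early ones without overlap, and in scaled TPM the late level was 51.7% ± 3.48 (SD, n = 4) of the early level. The log2 change of -0.88, -0.91, -1.10 and -0.92 was among the most even over lysates, and limma gave -0.95 (SE 0.12, adjusted p = 0.00015).

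The macroH2A genes did not fall. H2afy2 (macroH2A2) stood at 98.9 and 100.0 TPM in WT early, 167.3 and 152.6 TPM in WT late, 87.3 and 89.1 TPM in cKO early, and 142.3 and 149.5 TPM in cKO late libraries. Every late library was above every early one, and in scaled TPM the late level was 150.4% ± 8.24 (SD, n = 4) of the early level. For H2afy2 limma gave 0.58 (SE 0.065, adjusted p = 8.54e-05). H2afy (macroH2A1), the more abundant of the macroH2A genes, stood at 396.4 and 426.1 TPM in WT early, 432.1 and 427.4 TPM in WT late, 370.5 and 389.0 TPM in cKO early, and 450.7 and 485.9 TPM in cKO late libraries. Deposited TPM of H2afy was higher in late libraries by a narrow margin. After scaling, its log2 change was 0.036, -0.12, 0.20 and 0.15 in the 4 lysates, and it was not called (0.066, SE 0.072, adjusted p = 0.438 in limma). The outcome for H2afy depended on the scaling. With quantile normalization it was called higher in cKO (0.47, adjusted p = 0.00419) and on average (0.37, adjusted p = 0.00177), and in TPM as deposited it was called higher in cKO (0.30, adjusted p = 0.0339), all in limma. In WT its change was -0.043 after scaling, 0.064 as deposited and 0.26 with quantile normalization (adjusted p = 0.743, 0.627 and 0.0549 in limma).

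The linker histone mRNAs were lower in late polysomes as well. H1f0, the linker histone known to build up in cells that stop dividing, stood at 562.9 and 584.1 TPM in WT early, 355.6 and 347.7 TPM in WT late, 556.6 and 603.8 TPM in cKO early, and 375.2 and 388.2 TPM in cKO late libraries. Its early and late libraries did not overlap, the late level in scaled TPM was 58.7% ± 3.85 (SD, n = 4) of the early level, and limma gave -0.77 (SE 0.073, adjusted p = 4.38e-05). H1fx stood at 175.4 and 265.6 TPM in WT early, 108.2 and 126.4 TPM in WT late, 209.1 and 269.5 TPM in cKO early, and 150.4 and 177.7 TPM in cKO late libraries. H1fx was the only variant whose early and late libraries overlapped, since cKO late replicate 2 was above WT early replicate 1. Of all genes tested, 62.5% had early and late libraries that did not overlap. H1fx was lower in late polysomes in each lysate (-0.78, -1.19, -0.56 and -0.77), and limma gave -0.82 on average (SE 0.15, adjusted p = 0.00118). Without WT early replicate 2 the change of H1fx was -0.67 on average and -0.68 in WT, where it was -0.98 with it (adjusted p = 0.00278, 0.0312 and 0.00465 in limma). In cKO alone its change of -0.66 (adjusted p = 0.0249) was no longer called without cKO early replicate 2 (-0.46, adjusted p = 0.158), without cKO late replicate 1 (-0.57, adjusted p = 0.112) or without cKO late replicate 2 (-0.75, adjusted p = 0.0534), all in limma. It was also lost in TPM as deposited (-0.54, adjusted p = 0.05 at the threshold).

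Set beside coding length, the changes of the variants were ordered much as their lengths. Over the 9 genes, Spearman's rho between coding length and the average change was 0.92 (0.937 without WT early replicate 2), and over the 14675 tested genes with an annotated coding length (91.2% of those tested) it was 0.633. Both are descriptions across genes of the same libraries, and genes are not independent replicates. Each variant was therefore compared with the tested genes whose coding length was within 10% of its own, as a description with no test. H1f0 differed from the median of its 741 genes (-0.76) by 0.0074 ± 0.091 (SD, n = 4 lysates), by 0.26 with quantile normalization and by -0.68 when matched on the longest transcript. H1fx likewise differed from the median of 665 genes (-0.79) by -0.013 ± 0.24. H3f3b was above the median of 406 genes (-1.18) by 0.061 ± 0.13 and H3f3a below it, at -0.13 ± 0.22, neither larger than its spread over lysates. In the same scaling and matching, the difference was also no larger than its spread for H2afv (0.10 ± 0.16 from the median of 355 genes, -1.21), H2afx (0.15 ± 0.23 from the median of 440 genes, -1.10) and H2afy (0.14 ± 0.14 from the median of 1517 genes, -0.076). It was larger for H2afy with quantile normalization (0.40), and for H2afv (-0.88) and H2afx (-0.52) when matched on the longest transcript. Genes as short as these were nearly always lower in late polysomes, with 95.5% called lower around 387 nt, 94.3% around 411 nt and 93.6% around 432 nt. Around 567 and 585 nt, 83.0% and 80.6% were called lower.

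**Figure D2:**
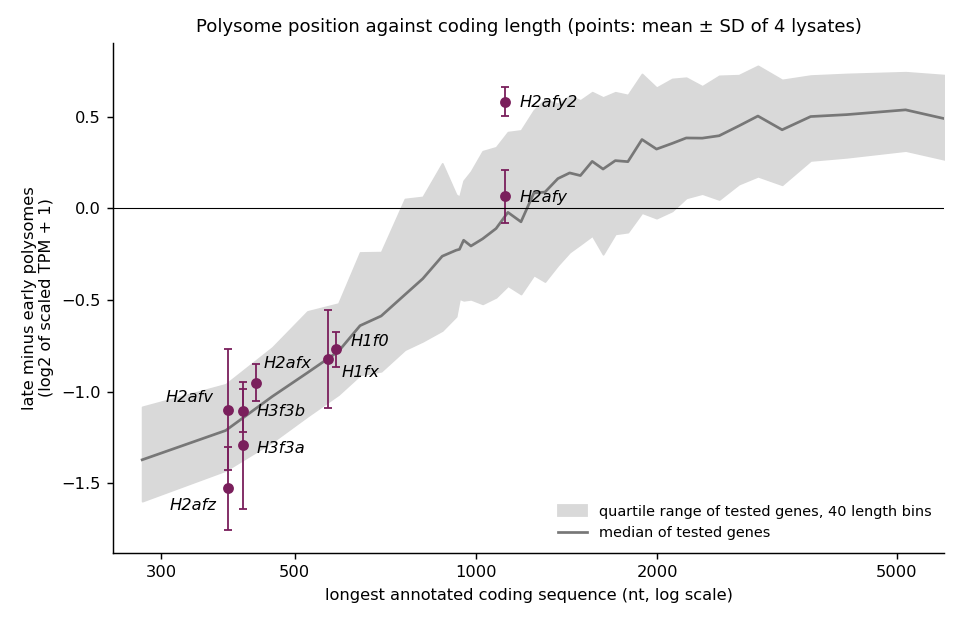
Average late-minus-early change in log2(scaled TPM + 1) (y axis) against the longest annotated coding sequence in nt (x axis, log scale); points are the 9 variants with the SD over 4 lysates, and the line and band are the median and quartiles of tested genes in bins of coding length. Most variants lie within the band, H2afz lies below it at -1.53 and H2afy2 above it at 0.58.

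In each of the 4 lysates, H2afz was below and H2afy2 above the median of genes of its own coding length. H2afz was below the median of genes of like length by more than the spread between lysates, with differences of -0.29, -0.33, -0.33 and -0.36 and a mean of -0.33 ± 0.027 (SD, n = 4). Only 12.7% of the 355 genes had a lower change. With quantile normalization the difference of H2afz was smaller, at -0.19. H2afy2 was above its median by 0.75, 0.55, 0.68 and 0.66, with a mean of 0.66 ± 0.081 (SD, n = 4), and 84.0% of the 1517 genes had a lower change. Without WT lysate 2 the differences were -0.33 for H2afz and 0.70 for H2afy2. Around 1119 nt, 36.9% of genes were called lower and 29.1% higher. When the length of the longest annotated transcript was matched in place of the coding sequence, the difference of H2afz became -0.78, and H3f3a moved from -0.13 to -1.36 and H3f3b from 0.061 to -1.09. The transcript length implied by the deposited TPM was about 1069 nt for H2afz, 1076 nt for H3f3a and 1993 nt for H3f3b. The longest-coding annotated transcript of H3f3a has 2841 nt. Implied lengths are estimates. Of 3029 genes with 1 annotated transcript, 59.6% had an implied length within 2% of the annotated one.

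**Figure D3:**
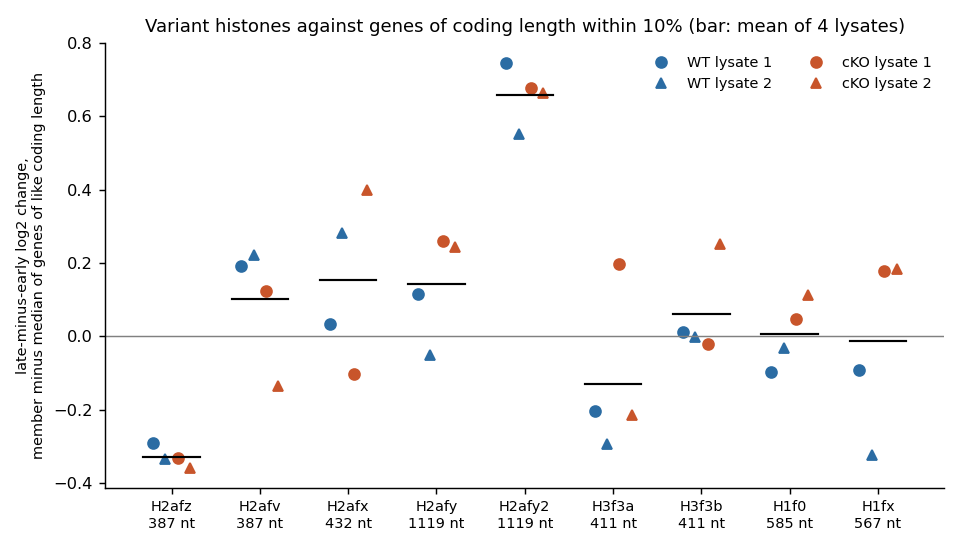
Late-minus-early log2 change of each variant minus the median change of tested genes with a coding length within 10% of its own (y axis), by gene with its coding length (x axis); each symbol is 1 lysate and each bar the mean of 4. All 4 lysates of H2afz lie between -0.36 and -0.29 and all 4 of H2afy2 between 0.55 and 0.75, while each of the other 7 has lysates on both sides of 0.

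Variants of equal or near-equal coding length were also compared directly in each lysate. The 5 pairs were tested with an exact two-sided sign-flip permutation test over 4 lysates, which cannot give a p below 0.125, so that no pair could pass 0.05. H2afy2 lay further toward late polysomes than H2afy in 4 of 4 lysates (by 0.63, 0.60, 0.42 and 0.42 on the log2 scale, mean 0.52 ± 0.11, exact p = 0.125, adjusted over the pairs 0.208). H2afv lay above H2afz in 4 of 4 lysates (0.48, 0.56, 0.46 and 0.22, mean 0.43 ± 0.14, exact p = 0.125, adjusted 0.208). H2afx lay above H2afz in 4 of 4 lysates too, at a slightly longer coding length (0.40, 0.73, 0.32 and 0.86, mean 0.58 ± 0.26, exact p = 0.125, adjusted 0.208). These differences had the same sign in every lysate, and without WT lysate 2 their means were 0.49, 0.39 and 0.53. H3f3b lay above H3f3a in 3 of 4 lysates (0.22, 0.29, -0.22 and 0.47, mean 0.19 ± 0.29, exact p = 0.375, adjusted 0.469), which is within the spread. The part of the 83 codons that differ between their coding sequences was not tested. H1fx and H1f0 differed by -0.053 ± 0.18 (exact p = 0.875, adjusted 0.875), below 0 in both WT lysates and above 0 in both cKO lysates. Without WT lysate 2, the mean was 0.035 for that pair and 0.15 for H3f3b minus H3f3a.

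Within H2A.Z mRNA, the part that came from H2afv was larger in late polysomes. Of the summed TPM of H2afz and H2afv, H2afv made up 15.3% and 15.1% in early and 20.1% and 20.6% in late libraries of WT. In cKO it made up 18.1% and 17.3% in early and 23.2% and 19.4% in late libraries. The share was higher in late polysomes in 4 of 4 lysates, by a mean of 4.36 percentage points ± 1.52 (SD; exact sign-flip permutation p = 0.125, the smallest 4 lysates can give; adjusted over 2 shares 0.25). Within H3.3 mRNA, the part from H3f3b hardly moved against its spread. It was 87.1% and 85.7% in early and 88.8% and 88.1% in late libraries of WT. In cKO it was 86.9% and 84.8% in early and 85.1% and 88.6% in late libraries. The size of the shares of H2afv and H3f3b depends on the transcript lengths behind the TPM. The late-minus-early difference was 1.49 points ± 2.36 (SD, n = 4; exact permutation p = 0.375), with cKO lysate 1 going the other way at -1.79 points. Without WT lysate 2, the mean difference was 3.99 points for H2afv and 1.2 points for H3f3b. The annotation holds processed pseudogenes named after these genes (H3f3c, H3f3a-ps1, H3f3a-ps2 and H2afy3), and how the authors counted reads shared with such copies is not given in the sources used here, so the levels of H3f3a, H3f3b and H2afy carry that uncertainty.

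The replication-dependent histone genes served as a comparison without a poly(A) tail, as far as their known biology goes. Coding lengths ran from 312 to 672 nt over the 57 tested genes with an annotated length. The table held 59, of which 58 were tested, and on average 54 were lower, 1 higher and 3 not called (limma). Their median change was -1.32, with quartiles of -1.49 and -1.09. H2afz at -1.53 lay within their range, with 12 of the 58 lower than it. The 6 of the 58 that were above H1f0 at -0.77 were the 6 H1 genes. The 10 H3 genes, at a median of 411 coding nt, ranged from -1.32 to -1.02 with a median of -1.18, and H3f3b (-1.11) and H3f3a (-1.29) both lay inside that range. The 13 H2A genes, at a median of 393 nt, ranged from -1.69 to -1.01 with a median of -1.30. H2afz and H2afv lay inside it and H2afx (-0.95) just above it. The 6 H1 genes, at a median of 651 nt, ranged from -0.70 to 0.36 with a median of -0.20, all above H1f0 and H1fx, although the median of genes of like length was -0.67 for them and -0.76 and -0.79 for H1f0 and H1fx. These are descriptions, and the difference between the classes was not tested. Markers of proliferating cells, in which replication-dependent histones are made, went the other way, with 9 of 12 higher and 1 lower in late polysomes and a summed level of 378 to 432 scaled TPM in early and 602 to 631 in late libraries. Of the markers of sustentacular cells 7 of 8 were higher and 1 lower, and of those of mature neurons 6 of 10 were higher and 4 lower. The marker lists were not matched on coding length, and the part of these cell types in the changes of the variants was not tested.

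Other histone variants in the table were scarce, or lower in late polysomes as well. Of 14 further variant genes listed, 8 were in the table and 2 passed the filter. The 8 include H2afy3, a processed pseudogene in the annotation. H2afj, an H2A variant gene with a coding length of 390 nt, stood at 39.6 to 138.7 TPM and changed by -1.47 (SE 0.13, adjusted p = 3.13e-05 in limma). Cenpa, the H3 variant of centromeres, with 405 nt, stood at 9.62 to 25.4 TPM and changed by -1.04 (SE 0.13, adjusted p = 0.000144 in limma). Both were called lower, as 7 of the 9 variants were, and H2afj lay near H2afz (387 nt, -1.53).

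The chaperones and remodelers that place these variants were mostly richer in late polysomes. Of 39 genes tested, 23 were higher, 9 lower and 7 not called on average, with a median of 0.41 beside -0.011 over all genes (limma). Their coding lengths ran from 477 to 11580 nt. In bins of all tested genes by coding length, the median change was -1.03 around 459 nt, 0.26 around 1704 nt and 0.50 around 2940 nt. The list was not matched on coding length, and the part of length in its changes was not tested. Znhit1, a subunit of the SRCAP complex that puts H2A.Z into nucleosomes, has 477 coding nt and stood at 154.6 to 165.2 TPM in early and 53.9 to 68.8 TPM in late libraries, a change of -1.50 (adjusted p = 1.88e-05 in limma). Dmap1 and Ruvbl1, which also take part in H2A.Z exchange, have 1407 and 1371 coding nt. Dmap1 stood at 14.2 to 18.4 TPM in early and 46.6 to 48.9 TPM in late libraries, a change of 1.41, and Ruvbl1 changed by 1.11, each with an adjusted p of 1.88e-05 in limma. These 3 were named for the size of their changes, and a long coding sequence did not always go with a higher late level in the list. Of 11 genes for the processing of replication-dependent histone mRNA, 6 were higher, 2 lower and 3 not called on average, beside 34.3% higher and 34.6% lower of all genes tested (limma).

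The question of the knockout was whether the variants differ between genotypes within a fraction. No variant passed the test. In early polysomes 0 of the 9 variants were called, against 0.0435% of all genes tested (7 of 16097), and 1 had an unadjusted p under 0.05, against 6.64% of all genes. In late polysomes 0 were called, against 0.0124% (2 genes), and 1 had an unadjusted p under 0.05, against 9.36%. With voom, a test in limma on the inferred reads, 0 variants were called in either fraction, and 2 in early and 1 in late polysomes had an unadjusted p under 0.05. With 2 against 2 libraries, a miss does not show that levels were alike. On simulated libraries with a fixed spread, 195 of 200 genes with a 3-fold change were recovered in the early comparison, with 21 false calls. No variant was near such a change, and smaller changes were not simulated.

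The estimates in limma ranged from -0.12 for H2afy2 to 0.40 for H2afv in early polysomes. H2afv stood at 82.3 and 83.7 TPM in WT and 106.8 and 103.8 TPM in cKO early libraries, a change of 0.40 (SE 0.18, adjusted p = 0.761). H2afx was the gene with an unadjusted p under 0.05 there, with a change of 0.39 (SE 0.17, adjusted p = 0.747). In deposited TPM, both cKO libraries were above both WT libraries for H2afz, H2afv and H2afx, 3 of 9 genes against 13.7% of all genes tested. Both WT libraries were above for H2afy and H2afy2, against 24.7%. Deposited TPM is not scaled, and the scaling factors were 0.986 and 0.973 in WT early and 0.952 and 0.931 in cKO early libraries. The other 4 variants overlapped in deposited TPM. Without WT early replicate 2, 0 variants were called and the estimates were 0.42 for H2afv, 0.54 for H2afx, 0.50 for H1fx (0.19 with it), 0.28 for H3f3a (0.14 with it), 0.12 for H3f3b (0.072 with it) and 0.11 for H1f0 (0.073 with it), with adjusted p from 0.754 to 0.891 in limma. In late polysomes H1fx stood at 108.2 and 126.4 TPM in WT and 150.4 and 177.7 TPM in cKO libraries, the largest of the 9 estimates (0.52, SE 0.21, adjusted p = 0.504 in limma). There, cKO was above WT without overlap in deposited TPM for H2afy, H3f3a, H1f0 and H1fx, 4 of 9 genes against 15.3%. WT was above for H2afy2 against 25.3%, and the other 4 overlapped. H2afy2 was the only variant whose cKO libraries were below its WT libraries in both fractions, at 98.9 and 100.0 against 87.3 and 89.1 TPM in early and 167.3 and 152.6 against 142.3 and 149.5 TPM in late libraries, with estimates of -0.12 and -0.093 (adjusted p = 0.869 and 0.781 in limma).

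The summed levels of some cell type markers did not overlap between genotypes, but the sums were not tested. Of the single markers, 0 genes of any list were called in either fraction. Such separation was common among all genes. In deposited TPM, both cKO libraries were above both WT libraries for 13.7% of genes tested in early and 15.3% in late polysomes. Both WT libraries were above both cKO libraries for 24.7% in early and 25.3% in late polysomes. The 8 markers of globose basal and progenitor cells summed to 661 to 707 scaled TPM in the early libraries of WT and 729 to 743 in those of cKO, and to 624.5 to 638.5 in the late libraries of WT and 729 to 767 in those of cKO. The 8 markers of immature neurons summed to 3675 to 3703 against 3392 to 3561 in early libraries (WT against cKO), and to 3108 to 3368 against 2738 to 2926 in late ones. The 8 markers of macrophages and lymphocytes summed to 140.1 to 157.2 against 162.1 to 170.1 in early libraries, and to 167.9 to 184.6 against 208.4 to 222.6 in late ones. The 6 neutrophil markers summed to 407.6 to 432.7 against 470.6 to 543.1 in early libraries and overlapped in late ones, and the 1 erythroid marker analysed stood at 32.2 to 47.3 against 50.4 to 57.3 in early and 36.7 to 46.3 against 57.3 to 59.2 in late libraries. In late libraries only, the sum of the 8 sustentacular markers was higher in cKO (12510 to 13070 in WT against 14180 to 14560 in cKO), and the sums of the 10 markers of mature neurons (10270 to 10470 against 8361 to 10030) and of the 6 of ensheathing glia (1053 to 1230 against 951.2 to 982.4) were lower. Single markers in these 3 lists had estimates on both sides of 0. The same held for globose basal and progenitor markers in both fractions and for immature neuron markers in late polysomes. It also held for neutrophil markers and for macrophage and lymphocyte markers in early polysomes. All 8 immature neuron markers were below 0 in early polysomes, and all 8 macrophage and lymphocyte markers were above 0 in late polysomes. No marker in these lists was at 0 in all libraries. Their part in the genotype estimates of the variants was not tested. The summed markers of proliferating cells overlapped between genotypes in both fractions.

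**Figure D4:**
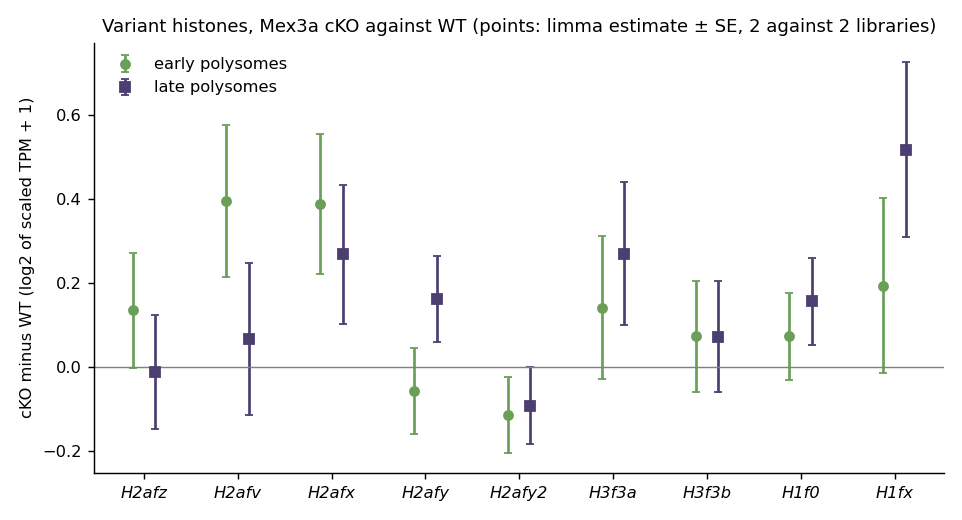
Change between cKO and WT in log2(scaled TPM + 1) (y axis) for the 9 variants (x axis) in early (circles) and late (squares) polysomes; points are limma estimates and bars their SE, from 2 against 2 libraries. H2afv and H2afx in early and H1fx in late polysomes lie furthest from 0, and none passes the adjusted threshold.

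The late-minus-early change of the variants did not pass a test of difference between genotypes. The interaction called 0 of the 9 variants against 0.00621% of all genes tested (1 of 16097), and 0 had an unadjusted p under 0.05, against 2.85% of all genes. Voom also called 0 variants, with 0 under an unadjusted 0.05. The estimates ranged from -0.33 for H2afv (SE 0.26) to 0.32 for H1fx (SE 0.30), which was 0.016 without WT early replicate 2. For H3f3b the late-minus-early change was -1.11 in both genotypes.

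The genes most like each variant over the 8 libraries were taken by Pearson's r of log2(scaled TPM + 1) among 12334 genes, as a description. Grpel1 and Ufc1 were closest to H2afz (r = 0.999 each), and Ndufb10 (0.999) and the replication-dependent histone gene Hist1h4d (0.998) to H3f3b. Mob2 and Pon2 (0.998 each) were closest to H3f3a, and Wdyhv1 and Lypd2 (0.997 each) to H2afv. Kcnk2 and Id2 (0.999 each) were closest to H1f0, and Peli2 (0.993) and Prrx2 (0.992) to H2afx. Slc44a1 (0.991) and Fam134c (0.990) were closest to H1fx, Syncrip (0.991) and Bcap31 (0.990) to H2afy2, and Dazap1 (0.939) and Slc35g2 (0.937) to H2afy. The points share the split into early and late libraries, so that any pair of genes that differ between fractions correlates, and H2afy, which changed little between them, had the weakest matches.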

How the data were processed

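RNA of early and late polysomes was sequenced in 8 stranded total RNA libraries. The authors deposited 1 table of TPM, whose columns each sum to 1000000. The submitters' processing notes name FastQC, cutadapt, STAR, DESeq2 and the build mm10. The counting method and annotation are not given in the sources used here, nor is the Cre line reported. Of the symbols, 27 had been turned into dates.

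Libraries were put on a common scale by the median ratio of their TPM (factors of 0.931 to 1.062). Genes with a mean TPM of at least 1 (16097) were tested as log2(scaled TPM + 1) with limma 3.58.1 in R 4.3.3, with a mean-variance trend, 4 group means and 4 residual degrees of freedom. Tests were two-sided, with Benjamini-Hochberg adjustment and a threshold of 0.05. Changes on this scale understate those of low genes. Pairs and shares were tested over lysates with exact sign-flip permutations. TPM states no depth. Whole reads were inferred from the steps of its values for all 19783 genes above 0 in at least 2 libraries (100%, tolerance 0.001), and voom on them was added after seeing the data. In simulated libraries 99.3% of 19679 genes came back exactly, and of 200 genes changed 3-fold the limma test recovered 195 in the early genotype comparison, with 21 false calls, and 200 between fractions, with 13. Precision is limited by 2 libraries per group.

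Pairing of late with early libraries comes from the lysate names within the library names of the labels' descriptions. Deviations from group means correlated at 0.0862 in WT and 0.0502 in cKO lysates. Alternatives were pseudocounts, filters, scalings, no trend, replicate blocks, the 4 compared libraries alone and leaving out each library. Genes named were the 9 variants, Mex3a, up to 3 genes with the largest called change of the lists of variants and of chaperones, and the 2 genes most like each variant. The genes and lists were chosen with earlier results of these data known. Figures were drawn with matplotlib 3.10.9.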

Additional observations from a re-analysis of the deposited data

Results flagged for a closer look

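The late-minus-early difference between H1fx and H1f0 (mean -0.053 on the log2 scale) had opposite signs in the genotypes. It was -0.030 and -0.32 in the WT lysates and 0.096 and 0.039 in the cKO lysates. The difference between genotypes was not tested.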

How the results depend on the processing

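Late-against-early calls kept their direction and side of the threshold for 8 of 9 variants on average in every alternative, the exception being H2afy, and in WT for the same 8. The H2afy and H1fx values that changed side stand in the report. In WT the change of H2afy turned to 0.064 as deposited and 0.26 with quantile normalization, and ranged from -0.11 to 0.019 when a library was left out. The replicate block by lysate called 8660 genes in WT, 9244 in cKO, 11005 on average and 1 in the interaction, and the replicate block on the number 9263, 9812, 11400 and 1, and 7 and 2 between genotypes. Neither block changed the call of a variant. WT and cKO libraries of a replicate number share that number, and their library names are also numbered consecutively. Their deviations correlated at 0.331 in early and 0.142 in late polysomes, beside 0.0862 in WT and 0.0502 in cKO lysates. Whether libraries of a replicate number were handled as a set was not tested, nor was the part of such a set in the spread over lysates. Without scaling, the median change of all genes moved to 0.087, and 56.2% of average calls were higher, beside 49.7% with scaling.

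Of all genes, 8824 were called between fractions in WT, and 5874 to 8968 with a library left out, lowest without WT early replicate 2, the library with the conflicting tag. A lone library in a group is then assumed to vary like the others. Between genotypes in early polysomes, 7 genes became 11 with no filter, 4 at a mean TPM of at least 5, 0 in limma on the 4 libraries alone (1043 at an unadjusted p under 0.05), 19 with voom, and 0 to 9 with a library left out. In late polysomes, 2 genes became 1 at a pseudocount of 0.1, 4 with no filter, 1 at a mean TPM of at least 5, 5 with no trend, 1 on the 4 libraries alone, 14 with voom, and 0 to 13 with a library left out. In the interaction, 1 gene became 6 with no filter, 0 at a mean TPM of at least 5 (326 unadjusted in limma), 2 with no trend, 0 with voom (403 unadjusted), and 1 to 7 with a library left out. The cause of these changes in the counts was not tested.

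Signs of uncalled genotype estimates also turned. With quantile normalization, H3f3b was at -0.045 and H1f0 at -0.010 in early polysomes, and the H3f3b interaction was 0.069, or 0.018 as deposited. With a library left out, early estimates ranged from -0.12 to 0.0048 for H2afy, -0.017 to 0.30 for H3f3a, -0.0014 to 0.15 for H1f0 and -0.11 to 0.50 for H1fx. Late estimates ranged from -0.16 to 0.14 for H2afz, -0.24 to 0.37 for H2afv and -0.019 to 0.16 for H3f3b. Interactions ranged from -0.30 to 0.0041 for H2afz, -0.31 to 0.069 for H2afx, -0.052 to 0.098 for H2afy2, -0.086 to 0.34 for H3f3a and -0.091 to 0.091 for H3f3b. H1fx minus H1f0 ranged from -0.10 to 0.035, above 0 without WT lysate 2.

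Against genes of like coding length, H2afz moved to -0.27 at a pseudocount of 0.1, -0.19 with quantile normalization and -0.36 with lengths within 25%. With quantile normalization H2afy moved to 0.40 and H1f0 to 0.26. Matched on the longest transcript, H2afz moved to -0.78, H2afv to -0.88, H2afx to -0.52, H3f3a to -1.36, H3f3b to -1.09 and H1f0 to -0.68. H2afy2 stayed within its spread under each of these.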
